A study of Bombyx mori with 12 samples.

Results

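The comparison described here set the tetramolters of batch 1 against the trimolters of the same batch in the silkworm Bombyx mori, 3 libraries a group. These are 6 of the 12 libraries of the study, chosen by their labelled molting type and batch. Gene changes were tested for 10721 of the 17072 annotated rows of the count table. The study collected larvae of the strain Guangri 3 (spelled Gurangri 3 in the genotype label) at the molt of the third instar and sequenced poly(A) RNA of joined head and thorax, the cephalothorax. Tetramolters are larvae with an added molt, and trimolters are those without it. Larvae were reared on mulberry leaf in spring and in autumn, the autumn larvae at a higher temperature. The series text names the spring larvae group A and the batch 1 titles carry an A, but no label gives a season to a batch. Both groups shared strain, tissue, batch and labelled stage, and the labels name no genetic change in either.

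Several properties limit these groups as a model. The design text speaks of 3 silkworms for each type and season, and no label ties a library to 1 animal, so p-values measure the spread between these libraries, which may be technical in part. The labels give no time within the molt, and head and thorax hold epidermis, muscle, nervous tissue, gland and gut. In such bulk samples, fewer cells of a type and less RNA per cell cannot be told apart.

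Molting in insects is driven by pulses of ecdysteroids, which the prothoracic glands make from dietary sterols and which act through the receptor pair EcR and USP on a cascade of transcription factors. Juvenile hormone, made in the corpora allata, sets whether a molt leads to another larval stage or to metamorphosis. During each molt the epidermis detaches from the old cuticle, digests it, and secretes a new one built of chitin and cuticle proteins, and peptides such as ecdysis triggering hormone then release the shedding behaviour.

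Batch 1 libraries held between 13449541 counts (trimolter 2) and 15650612 counts (tetramolter 1). The 3 tetramolter libraries were close to each other, with Pearson correlations of 0.990 to 0.991 across genes of log2 CPM (counts scaled to a common library size), against 0.937 to 0.967 among the trimolters. Among the 9267 genes with a mean of at least 1 log2 CPM, the SD over 3 libraries exceeded 1 log2 unit for 3 genes in the tetramolters and for 430 genes in the trimolters. On principal components of the 6 libraries, the first axis (63.1% of the variance) separated the groups and the second axis (22.9%) spread the trimolters, with trimolter 1 at 50.8, trimolter 3 at -0.58 and trimolter 2 at -45.3. The trimolters were thus not alike, and values are given per library throughout.

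Of 10721 genes tested, 4849 (45.2%) differed between tetramolters and trimolters in edgeR's quasi-likelihood test at an adjusted p under 0.05. Of these, 2416 (22.5%) were higher and 2433 (22.7%) lower in tetramolters. The median log2 fold change, tetramolters over trimolters, was 0.90 among genes called higher, -0.75 among genes called lower and 0.01 over all genes tested. Changes of at least 1 log2 unit were called for 1031 higher genes (9.62%) and 745 lower genes (6.95%), together 16.6%. The extremes leaned the other way: 51 genes were higher and 65 lower by at least 3 log2 units, and 8 were higher and 21 lower by at least 5. Group ranges did not overlap for 53.7% of the genes tested, and 42.6% were both called and without overlap. Of the 5872 genes that did not pass, 1842 had a 95% interval of their change within 0.5 log2 units of 0. With this much of the transcriptome called, counts for any gene group below are to be read against 22.5% higher and 22.7% lower.

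**Figure D1:**
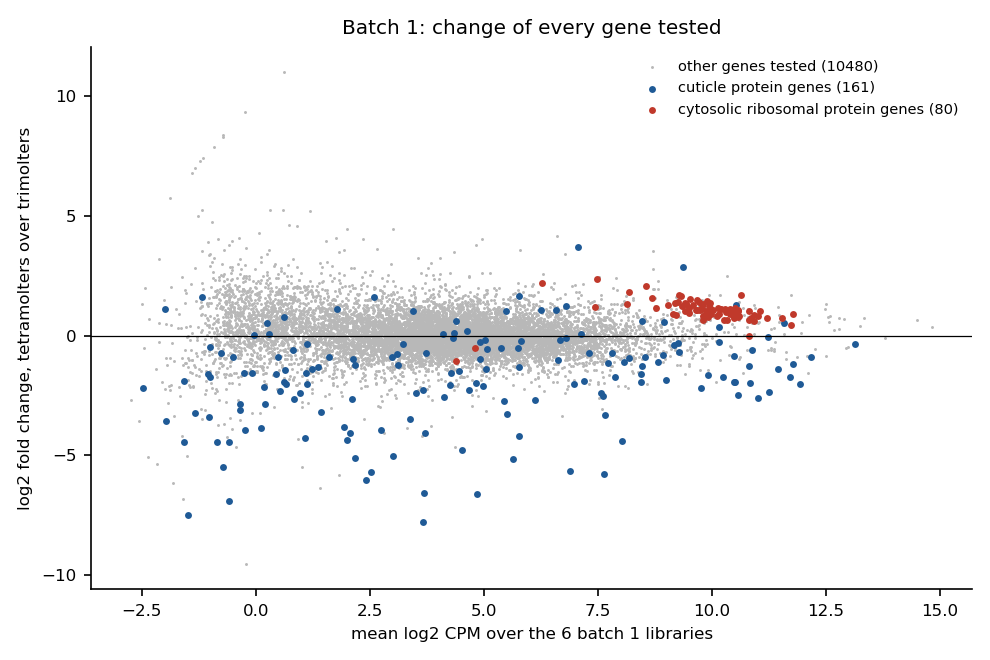
Each point is 1 of the 10721 genes tested, with its mean log2 CPM over the 6 batch 1 libraries on the x axis and its log2 fold change, tetramolters over trimolters, on the y axis. Cuticle protein genes (161, blue) reach down to -7.78, while cytosolic ribosomal protein genes (80, red) lie in a band with a median of 1.07. The fitted change of a gene with 0 counts in a group is no measure of its size.

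Cuticle protein genes were 33 of the 65 genes lower in tetramolters by at least 3 log2 units. Of 207 such genes in the annotation 161 were tested, and 93 were lower and 12 higher in tetramolters (median log2 fold change -1.56). In each family more genes were lower than higher. Of 97 RR genes (the Rebers and Riddiford motif, which binds chitin), 54 were lower and 7 higher. Of 32 CPH genes (hypothetical cuticle proteins), 20 were lower and 1 higher, and of 25 CPG genes (glycine-rich), 12 were lower and 4 higher. All 7 tested genes of the CPF, CPFL and Tweedle (CPT) families were lower. Counts of near-identical cuticle genes depend on how shared reads were assigned, a step that no source used here gives.

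The largest fall among named genes was that of the RR gene CPR104 (gene ID 692394), with 0.273, 0.999 and 1.46 CPM in the tetramolters, against 261, 86.4 and 256 CPM in the trimolters (log2 fold change -7.78, SE 0.56, edgeR adjusted p = 1.2e-05). CPR71 had 5.32, 3.5 and 2.99 CPM in the tetramolters, against 312, 36.2 and 821 CPM in the trimolters (-6.63, SE 0.84). In both genes the groups were far apart, and trimolter 2 was the lowest of the trimolters. CPR39 had 4.64, 0.928 and 0.764 CPM in the tetramolters, against 32.7, 59.3 and 517 CPM in the trimolters (-6.58, SE 1.05), CPR105 had 0.955, 0.214 and 0.764 CPM in the tetramolters, against 35.6, 28.7 and 64.2 CPM in the trimolters (-6.03, SE 0.48) and CPR12 had 0.478, 0.928 and 1.04 CPM in the tetramolters, against 76.2, 17.2 and 36.3 CPM in the trimolters (-5.72, SE 0.62). CPR67 fell by 5.03 on the log2 scale. For CPR39 the trimolters differed among themselves by more than 10 times, yet none reached down to the tetramolters.

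CPFL4, of the CPF-like family, was at 31.7, 29.3 and 33 CPM in the tetramolters and at 1875, 358 and 2971 CPM in the trimolters (log2 fold change -5.79, SE 0.57, edgeR adjusted p = 0.000135). Its relative CPFL3 had 9.62, 11.2 and 7.71 CPM in the tetramolters, against 227, 117 and 670.3 CPM in the trimolters (-5.15), and CPH7 had 19.7, 18.1 and 18.6 CPM in the tetramolters, against 1103, 248 and 1497 CPM in the trimolters (-5.66). The trimolter 2 value was the lowest of its group in all 3 genes and still several times the highest tetramolter value. CPF had 1, 1 and 0 counts in the tetramolters and 68, 9 and 33 counts in the trimolters, a ratio of trimolters over tetramolters of 54.4 (95% exact interval of counting error 14.7 to 454). CPT1, a Tweedle gene of high level, changed less, by -0.60 (SE 0.16), with 1491, 1548 and 1578 CPM in tetramolters and 2080.5, 2829.5 and 2068 CPM in trimolters.

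In absolute terms the largest losses were in abundant cuticle genes, and in most of them the trimolters were close together. CPR3 had 2008, 1891 and 1888 CPM in the tetramolters, against 7602, 7786 and 8426 CPM in the trimolters (log2 fold change -2.04, SE 0.13, edgeR adjusted p = 3.66e-06). CPR38 had 1120.1, 1076 and 1069.7 CPM in the tetramolters, against 4689, 5388 and 6869 CPM in the trimolters (-2.38), CPR41 had 1815, 1899 and 1833 CPM in the tetramolters, against 5903, 6399 and 5929.9 CPM in the trimolters (-1.72), and CPG4 had 799.8, 855 and 894 CPM in the tetramolters, against 4291, 4753 and 6438 CPM in the trimolters (-2.60). Each was between 3 and 7 times lower in every tetramolter than in the trimolters' mean. CPH2 was less even, with 733, 743 and 751 CPM in the tetramolters, against 7727, 1084 and 3549 CPM in the trimolters (-2.47), so trimolter 2 lay near the tetramolters. CPG5 had 69.995, 61.6 and 62 CPM in the tetramolters, against 567, 499.6 and 869 CPM in the trimolters (log2 fold change -3.32, SE 0.18, edgeR adjusted p = 3.66e-06). LOC101737749, which the annotation does not name, ranked with these genes in absolute loss, with 2426, 2695 and 2693 CPM in the tetramolters, against 5428, 9116 and 8352 CPM in the trimolters (-1.55).

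Cuticle genes together took 5.28%, 5.01% and 5.02% of all counts in the tetramolters, against 14.6%, 7.56% and 11.6% in the trimolters. The groups did not overlap (exact permutation test, 2-sided p = 0.1, the smallest that 3 against 3 libraries allow). Of the 93 cuticle genes called lower, 68 had their lowest trimolter value in trimolter 2, 44 their highest in trimolter 1 and 42 in trimolter 3. Over all 161, the median SD of log2 CPM was 0.15 in tetramolters and 0.91 in trimolters.

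A small set of cuticle genes went against the rest. CPG19 had 572, 486 and 432 CPM in the tetramolters, against 55.7, 39.3 and 21.2 CPM in the trimolters (log2 fold change 3.68, SE 0.34, edgeR adjusted p = 5.3e-05) and CPH27 had 2299, 2078 and 1873 CPM in the tetramolters, against 598, 91.2 and 177 CPM in the trimolters (2.85, SE 0.52). In both, every tetramolter lay above every trimolter, and CPH27 varied more than 6 times among the trimolters. The abundant CPG16 had 2336, 2329 and 2314 CPM in the tetramolters, against 957, 1194 and 758 CPM in the trimolters (1.26, SE 0.23) and CPR148 had 1442, 1318 and 1338 CPM in the tetramolters, against 922, 660.1 and 552 CPM in the trimolters (0.94, SE 0.21), both chosen after their values were seen. Members of the same families thus changed in opposite directions in the same libraries.

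**Figure D2:**
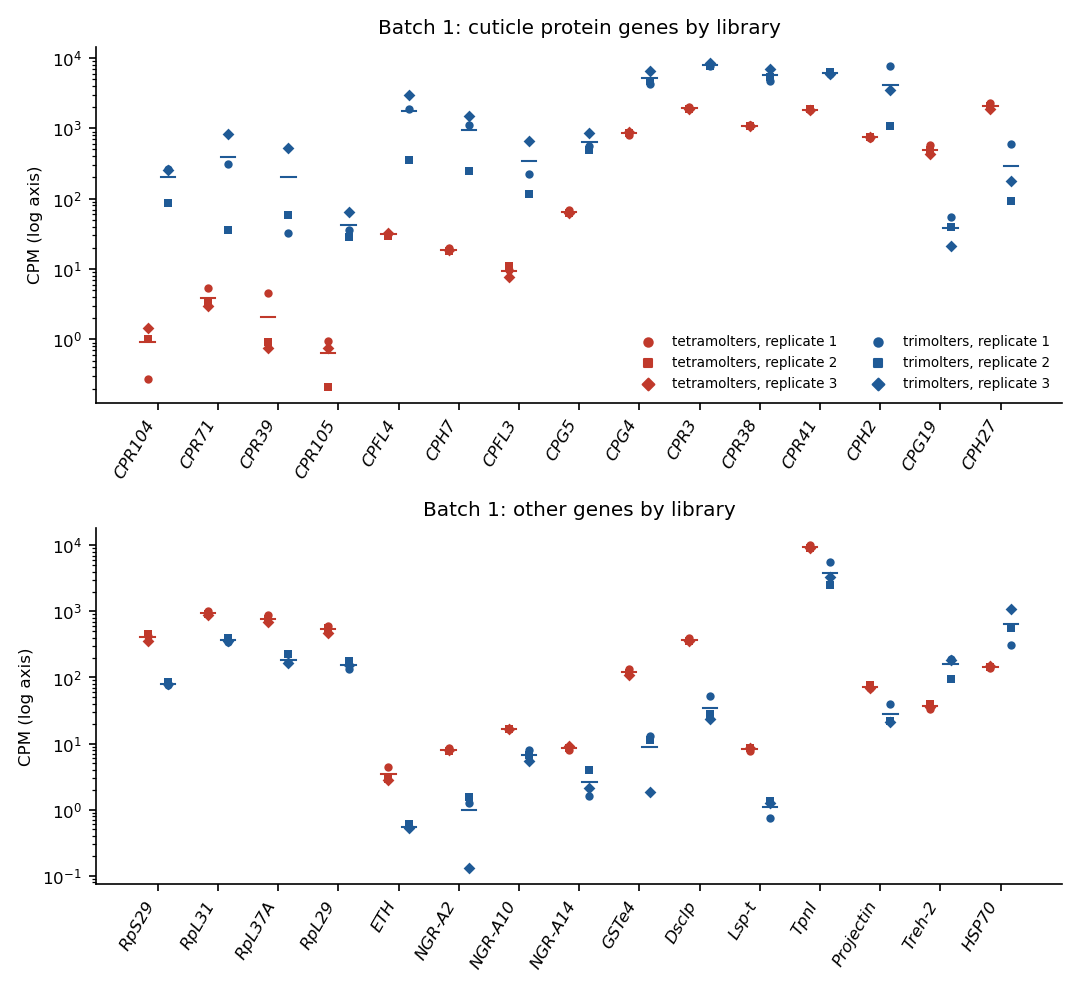
CPM by library on a log axis, with the 3 tetramolter libraries left (red) and the 3 trimolter libraries right (blue) of each gene, symbols marking the replicate and bars the group mean. The upper panel shows cuticle genes, where tetramolter points nearly coincide and trimolter points of CPR71, CPR39 and CPH2 spread widely, and the lower panel shows ribosomal, peptide, muscle and other genes named in the text.

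Cuticle genes lie in clusters in the silkworm genome, and the changes ran through them. Of 10192 tested genes placed in RefSeq order, 12 runs of at least 5 neighbours were called lower and 12 were called higher. These are to be read against 22.5% of all genes tested called higher and 22.7% lower. How many such runs a random gene order would give was not tested. Of the 12 lower runs, 8 held at least 3 cuticle genes. The longest held 9 neighbours, CPR39, CPR38, CPR37, CPR36, LOC101744624, CPR34, CPR33, CPR32 and CPR31, with log2 fold changes of -6.58, -2.38, -2.65, -0.54, -1.71, -1.09, -2.31, -1.61 and -1.48. The change was thus uneven along the run, and deepest at the end that CPR39 marks. CPR105, CPR104, CPR103, CPR102 and CPR100 formed another run. There CPR102 had 0, 0 and 0 counts in the tetramolters and 15, 1 and 51 counts in the trimolters, at least 22.1-fold lower in tetramolters at a floor of 3 counts over the group. CPR100 had 1, 0 and 0 counts in the tetramolters and 54, 11 and 104 counts in the trimolters, a ratio of trimolters over tetramolters of 167 (exact interval 29.6 to 6633). Further runs held CPR90 to CPR86 (-1.92 to -4.79), CPR44 to CPR41 with CPG21 (-1.002 to -3.28) and CPH14 to CPH10 (-1.73 to -4.18). Some runs rest on calls that 1 library decides. CPH14 lost its call without any 1 library other than trimolter 2 (edgeR adjusted p of up to 0.145), CPH12 without trimolter 1 (edgeR adjusted p = 0.0676) and CPR89 without tetramolter 2 or 3 or trimolter 1 (edgeR adjusted p of up to 0.0917), which leaves those runs under 5 neighbours. CPR31 lost its call without tetramolter 3 or trimolter 1 (edgeR adjusted p of up to 0.0554), which shortens the longest run.

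Runs of genes called higher held 1 cuticle gene among 65 genes. Of the 12 runs, none held 3 cuticle genes and 8 held LOC-numbered genes alone. The latter count is to be read against 9028 genes with a LOC number among the 10721 tested. A run of 7 began with yellow-11 and held LOC101740731 (listed as yellow-15), LOC101738170, LOC101738305, LOC105841787, LOC693006 (listed as yellow-8) and LOC101741665. The yellow genes encode secreted proteins tied to pigment in insects, and 3 of these 7 neighbours belong to that family. Their log2 fold changes ran between 0.86 and 2.87. The other run of 7 held only unnamed genes, with LOC101738062 at its centre (4.63, SE 0.69). Some higher runs also rest on calls that 1 library decides. LOC101744122, in a run of 5, lost its call without any 1 library other than trimolter 1 (edgeR adjusted p of up to 0.167). LOC101746123 and LOC101735657, in other runs of 5, lost theirs without tetramolter 1, trimolter 1 or trimolter 3, among others (edgeR adjusted p of up to 0.214). Neighbours can share reads or transcripts where annotation is imperfect, and this was not tested.

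**Figure D3:**
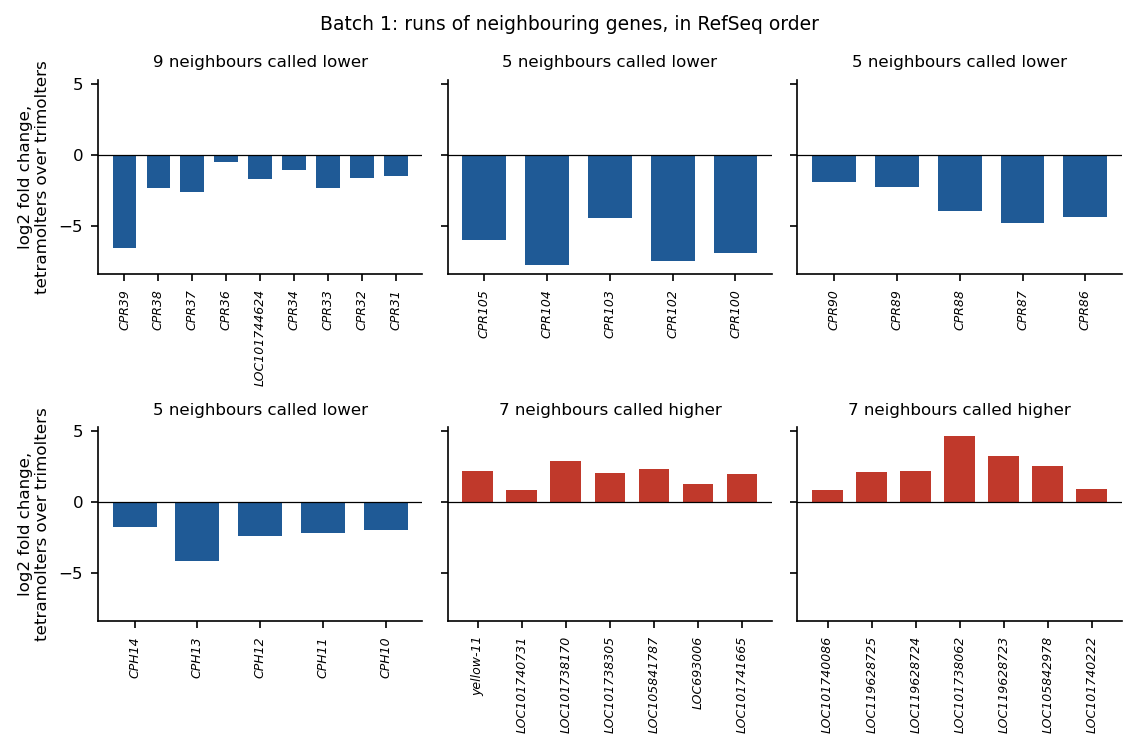
Log2 fold change, tetramolters over trimolters, of the genes in 6 of the 24 runs of at least 5 neighbours called in the same direction, in RefSeq order. Blue bars are lower and red bars higher in tetramolters, and CPR102, with no counts in tetramolters, and CPR100, with 1, are drawn at their fitted values, which are not a measure of size.

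Chitin enzymes and pigment genes moved with less accord than the cuticle proteins. Of 9 tested genes of chitin metabolism, 4 were lower and 1 higher. Treh-2, a trehalase, which splits the blood sugar that feeds chitin synthesis, had 33.4, 39.95 and 35.9 CPM in the tetramolters, against 190.3, 96.3 and 187 CPM in the trimolters (log2 fold change -2.12, SE 0.20, edgeR adjusted p = 2.86e-05). GlcNAcase1 and GlcNAcase2 both encode enzymes that cut chitin fragments to single sugars, and they changed in opposite directions. GlcNAcase2 had 43.1, 45.9 and 46.3 CPM in the tetramolters, against 10.8, 13 and 8.48 CPM in the trimolters (2.07), whereas GlcNAcase1 had 36.9, 43.5 and 42.8 CPM in the tetramolters, against 60.04, 87.8 and 105 CPM in the trimolters (-1.04). Idgf, a chitinase relative that acts as a growth factor in flies, fell by 0.82. The chitinase genes Chi-h (-1.06, SE 0.55) and Chi (-1.21, SE 0.67) did not pass, with trimolter 3 above the other libraries in both. Among 14 tested genes of melanin and tanning, 5 were higher and 1 lower. yellow-11 had 41.6, 38.5 and 37.7 CPM in the tetramolters, against 11.9, 10.5 and 4.04 CPM in the trimolters (2.16), yellow-12 had 64.9, 56.1 and 62.9 CPM in the tetramolters, against 30.6, 22.3 and 18.4 CPM in the trimolters (1.37), and yellow-f, which acts on melanin precursors in flies, had 10.8, 10.6 and 13.3 CPM in the tetramolters, against 25.3, 21.7 and 23 CPM in the trimolters (-1.01). Each separated the groups. The tanning enzymes Lac2 (laccase, -0.88, SE 0.58), Th (tyrosine hydroxylase, -0.34, SE 0.27) and Ebony (-1.33, SE 0.63) overlapped between groups and did not pass.

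Changes of called genes of ecdysteroids and juvenile hormone lay between -1.08 and 1.90 log2 units, a gene of near 0 counts (LOC100862708) aside. In ecdysteroid synthesis, Cyp306a1, a cytochrome P450 that adds a hydroxyl group to the steroid, had 66.8, 61.9 and 64.5 CPM in the tetramolters, against 18.4, 19.8 and 13.4 CPM in the trimolters (log2 fold change 1.90, SE 0.15, edgeR adjusted p = 1.16e-05). It was the 1 gene of 6 tested in that list to pass, and no trimolter came near the tetramolters. The other steps were at low levels and did not pass: Nvd, which acts on cholesterol (0.44, SE 0.53), Cyp302a1 (0.33, SE 0.40), Cyp315a1 (0.10, SE 0.34) and Cyp314a1, which makes the active hormone (1.13, SE 0.54). Cyp307a1 had 4, 0 and 1 counts in the tetramolters and 1, 0 and 0 counts in the trimolters, a ratio of tetramolters over trimolters of 5.06 (exact interval 0.566 to 239). Of the turnover genes, LOC692444, listed as EPPase, which frees ecdysteroids from their phosphate esters, had 18.8, 19.98 and 16.8 CPM in the tetramolters, against 15.1, 10.2 and 7.63 CPM in the trimolters (log2 fold change 0.76, SE 0.23, edgeR adjusted p = 0.0191). That call was lost without tetramolter 1, tetramolter 2 or trimolter 3 (edgeR adjusted p of up to 0.0785). LOC100862708, listed as EO (ecdysone oxidase, which inactivates ecdysteroids), had 1, 0 and 0 counts in the tetramolters and 1, 24 and 19 counts in the trimolters, so trimolter 1 matched the tetramolters. The ratio of trimolters over tetramolters was 43.5 (exact interval 7.41 to 1756), and the call was lost without any 1 library other than trimolter 1 (edgeR adjusted p of up to 0.0657). Cyp18a1, which inactivates the active hormone, differed by -0.01 (95% interval -0.33 to 0.31).

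In the ecdysone response, the receptor genes EcR (0.07, 95% interval -0.26 to 0.40) and USP (0.21, 95% interval -0.01 to 0.43) did not pass. The early genes split. Br-c, the broad complex, had 14.9, 18 and 18.6 CPM in the tetramolters, against 18.7, 30.3 and 35 CPM in the trimolters (log2 fold change -0.70, SE 0.19, edgeR adjusted p = 0.0101), and E74 had 88.5, 87.5 and 84.2 CPM in the tetramolters, against 156, 99.8 and 143 CPM in the trimolters (-0.62). E75 had 132, 127 and 127 CPM in the tetramolters, against 116, 91.6 and 95.7 CPM in the trimolters (0.35, SE 0.11), and its call was lost without any 1 tetramolter, trimolter 2 or trimolter 3 (edgeR adjusted p of up to 0.124). Ftz-f1, a nuclear receptor that appears as ecdysteroids decline, had 19.5, 21.3 and 22.2 CPM in the tetramolters, against 33.9, 26.1 and 28.8 CPM in the trimolters (-0.50), lost without tetramolter 1 (edgeR adjusted p = 0.0553). Br-c, E74 and Ftz-f1 were lower in every tetramolter than in any trimolter, and E75 was higher in every tetramolter, by small factors. Hr3 overlapped (-0.17, SE 0.27).

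Juvenile hormone is built by the mevalonate pathway and then by dedicated steps, and 4 of 8 tested genes of its synthesis were lower and none higher. All 4 act before the steps particular to the hormone. Aact, a thiolase at the entry of the pathway, had 122, 137 and 127 CPM in the tetramolters, against 172, 204 and 183 CPM in the trimolters (log2 fold change -0.53, SE 0.12, edgeR adjusted p = 0.00388). Hmg-s and Hmg-r, synthase and reductase of the next steps, fell by 0.71 (SE 0.20) and 0.57 (SE 0.15), with 20.5, 17.6 and 20.7 CPM of Hmg-r in tetramolters and 31.9, 22 and 33.6 CPM in trimolters. Fpps3, a farnesyl diphosphate synthase, fell by 0.39 (SE 0.15), a call lost without any 1 library other than tetramolter 2 (edgeR adjusted p of up to 0.105). The more abundant synthase gene Fps had 255, 244 and 257 CPM in the tetramolters, against 205, 248 and 153 CPM in the trimolters and did not pass (0.32, SE 0.15). P450, listed as CYP15C1, an epoxidase of the dedicated steps, differed by 0.18 (SE 0.25). The methyltransferase gene Jhamt had 13 counts over the tetramolters and 6 over the trimolters, too few to test.

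Genes that carry, sense or break down juvenile hormone changed in both directions. Of 13 tested, 3 were higher and 4 lower. Kr-h1, a zinc finger gene that juvenile hormone induces, had 68.8, 70.4 and 71.8 CPM in the tetramolters, against 43.4, 52.6 and 35.4 CPM in the trimolters (log2 fold change 0.68, SE 0.16, edgeR adjusted p = 0.00405). MET1, a receptor of the hormone, had 10.6, 11.5 and 13.1 CPM in the tetramolters, against 22.5, 19.5 and 22.1 CPM in the trimolters (-0.87, SE 0.13), so the receptor gene was lower and the induced gene higher in every tetramolter. BmMET2, the other receptor gene, was near its detection limit (0.78, SE 0.64). The epoxide hydrolase gene Jheh2 had 64.4, 75.8 and 67.4 CPM in the tetramolters, against 114, 175 and 149.99 CPM in the trimolters (-1.08, SE 0.15). Its relatives split, Jheh-lp2 at 1.53 (SE 0.24) and Jheh-lp3 at -0.72 (SE 0.13), while Jheh-lp1, Jheh-lp4 and jheh-lp5 overlapped between groups. Jhdk, the diol kinase, had 515, 502 and 498 CPM in the tetramolters, against 199, 839.8 and 613 CPM in the trimolters, so trimolters lay on both sides of the tetramolters, and did not pass (-0.12, SE 0.38). The esterase gene jhe1 did not pass either (0.32, SE 0.24). Binding proteins differed in direction: cytosolic Cjhbp fell by 0.48 (SE 0.10), and hJHBP of the blood rose by 0.72 (SE 0.22), a call lost without any 1 library other than trimolter 2 (edgeR adjusted p of up to 0.0882).

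**Figure D4:**
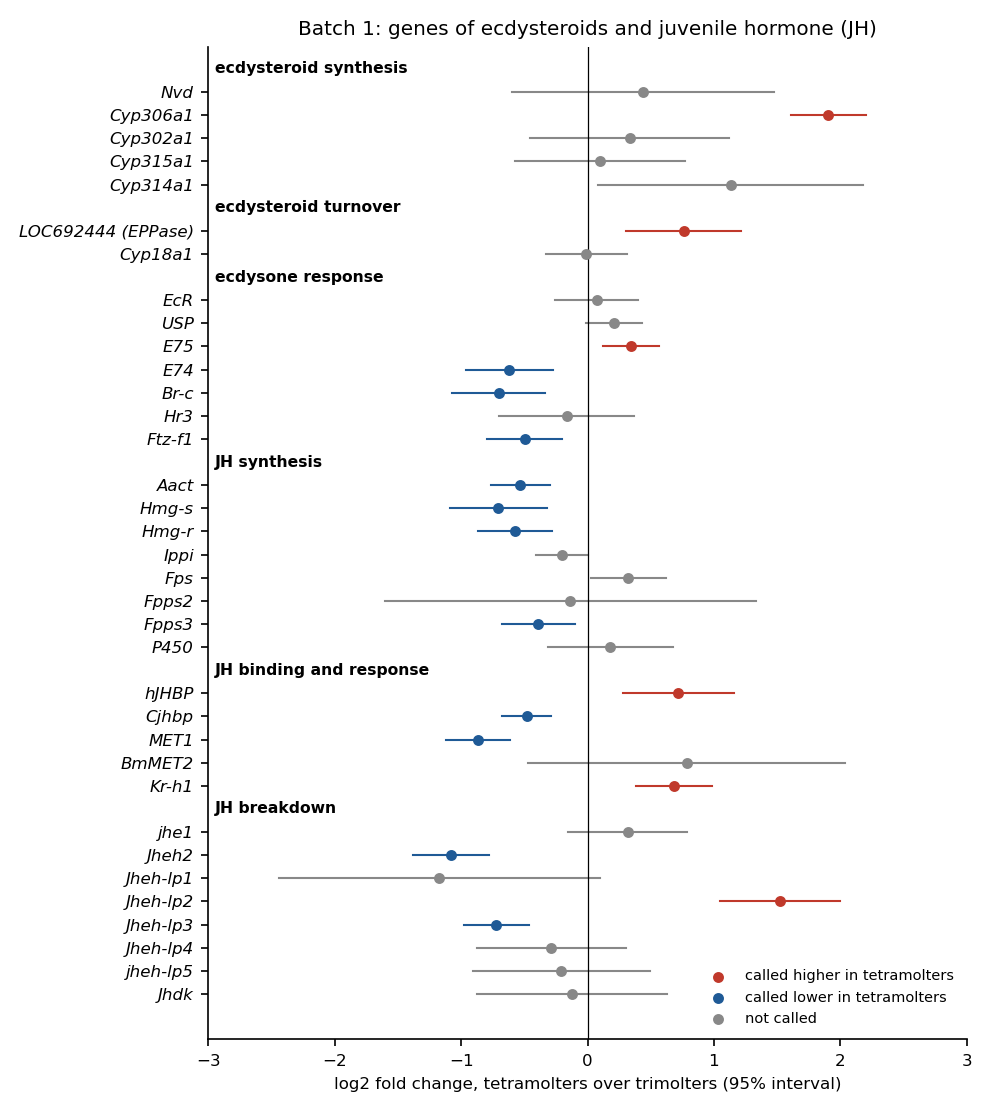
Log2 fold change, tetramolters over trimolters, of genes of ecdysteroids and juvenile hormone, grouped by role, with bars for 95% intervals. Red points were called higher, blue points lower and grey points did not pass; Cyp306a1 (1.90) and Jheh-lp2 (1.53) are the highest and Jheh2 (-1.08) the lowest called, and Cyp307a1 and LOC100862708, with 5 counts or fewer in a group, are left out.

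Many genes of peptide hormones and their receptors were higher in the tetramolters. Of 38 tested genes of neuropeptides and receptors, 21 were higher and 1 was lower (median 1.06), against 22.5% and 22.7% of all genes, and 13 were higher in limma-voom. The remaining 16 did not pass. In summed level the groups overlapped: the list took 0.0445%, 0.046% and 0.0463% of counts in tetramolters, against 0.0335%, 0.0472% and 0.0313% in trimolters, so trimolter 2 lay above every tetramolter. ETH, the ecdysis triggering hormone of the epitracheal glands, had 4.43, 2.93 and 2.85 CPM in the tetramolters, against 0.538, 0.597 and 0.522 CPM in the trimolters (log2 fold change 2.61, SE 0.39, edgeR adjusted p = 0.000273). Every trimolter lay more than 4 times below the lowest tetramolter, although these are low levels, with 147 counts over the tetramolters and 24 over the trimolters. Among 25 tested receptor genes of the NGR series, G protein-coupled receptors of neuropeptides, 14 were higher and none lower. NGR-A2 had 8.46, 7.71 and 8.06 CPM in the tetramolters, against 1.28, 1.57 and 0.13 CPM in the trimolters (3.03, SE 0.53), NGR-A10 had 16.4, 16.8 and 16.3 CPM in the tetramolters, against 7.93, 6.72 and 5.48 CPM in the trimolters (1.30, SE 0.18), and NGR-A14 had 7.85, 8.42 and 9.17 CPM in the tetramolters, against 1.61, 4.03 and 2.09 CPM in the trimolters (1.73, SE 0.29). All 3 separated the groups without overlap.

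Of the 13 tested genes outside the NGR series, 7 were higher, and these were named after their values were seen. MS, the myosuppressin gene, rose by 2.40 (SE 0.44), and pburs, a subunit of the tanning hormone bursicon, by 1.77 (SE 0.44). The adipokinetic hormone genes AKH1 and AKH2, whose peptides release energy stores, rose by 2.58 (SE 0.77) and 2.51 (SE 0.74), with no counts of either in trimolter 2. Their receptor gene Akhr was the 1 member called lower (-0.79, SE 0.26), with 22, 21.2 and 19.6 CPM in the tetramolters, against 31.8, 49.1 and 27.8 CPM in the trimolters. Dh31, a diuretic hormone gene, rose by 2.34 (SE 0.74), and sNPF by 0.89 (SE 0.27). Calls of peptide genes in this group rest on few counts. Those of AKH1 (without tetramolter 1 or 2), AKH2 (tetramolter 1), Dh31 (tetramolter 3) and sNPF (tetramolter 1 or 3) were lost. The call of Akhr, a gene of 19.6 to 49.1 CPM, was lost too (any 1 tetramolter or trimolter 2), at edgeR adjusted p of up to 0.106. EH, the eclosion hormone gene, was at 10.5, 9.06 and 10.01 CPM in tetramolters and 12, 9.41 and 10.2 CPM in trimolters and did not pass (-0.10, 95% interval -0.48 to 0.29). With the length trend removed, 2 of 18 tested markers of nervous system and eye were higher and 4 lower, and in the 6 libraries alone 1 was higher and 3 were lower. As tested here none was higher and 2 were lower, OAR2, an octopamine receptor gene (-0.91), and ace1, an acetylcholinesterase gene (-1.54), and Elav, which marks neurons, had 26.3, 20.2 and 22.6 CPM in the tetramolters, against 29.98, 24 and 29.2 CPM in the trimolters (-0.27, SE 0.13).

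Genes of the cytosolic ribosome were higher nearly as a block. Of 80 tested, 77 were higher and 2 lower (median 1.07), with all 32 genes named RpS among the higher. RpS29 had 419.8, 454 and 354 CPM in the tetramolters, against 75.9, 84.2 and 78.6 CPM in the trimolters (log2 fold change 2.36, SE 0.14, edgeR adjusted p = 3.66e-06), RpL37A had 887, 772 and 686 CPM in the tetramolters, against 173, 224 and 163 CPM in the trimolters (2.07), and RpL31 had 1007, 905 and 895 CPM in the tetramolters, against 346, 394 and 355 CPM in the trimolters (1.36). These groups were well apart, and trimolters differed little. RpP0 did not pass. The lower ones, RpL7Ae (-1.08) and RpL20 (-0.54), were named after their values were seen and stood at a far lower level, RpL20 with 23.7, 23.7 and 22.2 CPM in tetramolters and 36.9, 27.1 and 37 CPM in trimolters. In all 77 the highest trimolter was trimolter 2, the library with the lowest share of cuticle counts, and in 68 the lowest trimolter was trimolter 1. Together the list took 12.4%, 11.6% and 11.3% of counts in tetramolters, against 5.6%, 7.48% and 6.23% in trimolters.

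Ribosomal transcripts are short, and in the shortest of 4 equal length classes 872 genes were higher and 428 lower, against 349 and 838 in the longest. Across all genes tested, the log2 fold change correlated with relative gene length at a Spearman rho of -0.195 (genes are not independent replicates), and the median change was 0.25 in the shortest class and -0.15 in the longest. With that trend removed from each library, 74 ribosomal genes were higher and 2 lower, with a median of 0.76. Transcripts of the mitochondrial ribosome are also short, and of these 7 of 10 were lower and 1 higher (median -0.85). How much of either result is due to length was not tested. mRpS5 had 28, 30.5 and 26.1 CPM in the tetramolters, against 72.5, 63 and 79.6 CPM in the trimolters (log2 fold change -1.35, SE 0.11, edgeR adjusted p = 1.46e-05), and mRpL12 fell by 1.20. Cytosolic translation factors followed the ribosome, with 11 of 18 higher and none lower. eIF3g, a subunit of an initiation complex, had 420.2, 407 and 385 CPM in the tetramolters, against 148, 190.4 and 159 CPM in the trimolters (1.29), and Tctp had 3019, 2945 and 2889 CPM in the tetramolters, against 1238, 1508 and 1212 CPM in the trimolters (1.16). The abundant elongation factor gene EF1a had 11443, 11215 and 11401 CPM in the tetramolters, against 6871, 10729 and 8117 CPM in the trimolters and did not pass (0.41, SE 0.16).

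Energy genes changed in a mixed way. Of 11 tested mitochondrially encoded genes 7 were lower and 2 higher. The complex I genes ND5 and ND1 fell by 2.28 (SE 0.30) and 2.23 (SE 0.29), and ND1 had 53.7, 50.7 and 56.4 CPM in the tetramolters, against 339, 176 and 239 CPM in the trimolters. From the same genome ND4L (1.69, SE 0.39) and ND3 (1.08, SE 0.26) rose. Poly(A) selection and the counting of overlapping mitochondrial transcripts bear on such values, and their part was not tested. COX1 and COX2 lost their calls without tetramolter 2 or 3, and ATP6 without any 1 library other than trimolter 2 (edgeR adjusted p of up to 0.165), and 4 genes were lower without tetramolter 2 or 3. Of 4 tested genes of glycolysis 3 were lower: LOC778467, listed as ALD (aldolase), at -1.21, Tpi, the triosephosphate isomerase gene, at -1.10 and Ldh, the lactate dehydrogenase gene, at -1.01. Tpi had 125, 117 and 116 CPM in the tetramolters, against 351, 189 and 231 CPM in the trimolters. The other, LOC692786, listed as GAPDH, had 2167, 1997 and 1971 CPM in the tetramolters, against 2253, 1010.2 and 1512 CPM in the trimolters and did not pass.

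Stress and cell division genes were more often lower than higher. Of 37 tested heat shock and chaperone genes, 16 were lower and 7 higher. LOC733093, listed as an Hsp70 gene, had 2.8, 1.998 and 2.71 CPM in the tetramolters, against 7.53, 15.8 and 9.59 CPM in the trimolters (log2 fold change -2.13, SE 0.29, edgeR adjusted p = 0.000167), and HSP70 had 139, 142 and 151 CPM in the tetramolters, against 309, 561 and 1078 CPM in the trimolters (-2.17). Hsp90 had 121, 111 and 119 CPM in the tetramolters, against 236, 262 and 506 CPM in the trimolters (-1.52). In these genes the 3 tetramolters lay together below every trimolter. The constitutive Hsc70-4, by contrast, was among the genes with the largest gain in CPM, with 9872, 9822 and 9843 CPM in the tetramolters, against 5663, 6973 and 5565 CPM in the trimolters (0.70, SE 0.13). Of 25 cell cycle and DNA replication genes, 11 were lower and 1 higher. RnrS, the small subunit of ribonucleotide reductase, had 11.5, 13 and 13.6 CPM in the tetramolters, against 21.5, 32.6 and 36.7 CPM in the trimolters (log2 fold change -1.25, SE 0.19, edgeR adjusted p = 0.000341), Cdc2, the mitotic kinase, had 5.46, 7.56 and 5.63 CPM in the tetramolters, against 11.8, 13.4 and 12.3 CPM in the trimolters (-1.003), and Rpa1, which binds single-stranded DNA, fell by 0.63. The 1 gene called higher was cycD (1.40, SE 0.42), lost without tetramolter 1, tetramolter 2 or trimolter 3 (edgeR adjusted p of up to 0.0693). Without trimolter 3, 6 genes of the list were lower.

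Most signalling and secretion genes tested were lower. Of 10 tested genes of developmental signalling, 7 were lower and 1 higher. LOC101735420, listed as dawdle, an activin-type ligand in flies, had 6.62, 8.06 and 7.02 CPM in the tetramolters, against 19.4, 25.1 and 35 CPM in the trimolters (log2 fold change -1.87, SE 0.32, edgeR adjusted p = 0.00104), and Erk, a kinase of the Ras pathway, had 25.5, 22.9 and 25.4 CPM in the tetramolters, against 30.8, 58.4 and 59.997 CPM in the trimolters (-1.01). Of 7 genes of the COPI coat, which carries vesicles back from the Golgi, 5 were lower. COPA had 91.4, 103 and 98.8 CPM in the tetramolters, against 112, 186 and 179 CPM in the trimolters (-0.70) and COPB2 had 95.3, 101 and 102 CPM in the tetramolters, against 112, 194 and 196 CPM in the trimolters (-0.75), with trimolter 1 the nearest to the tetramolters in both. InR, the insulin receptor gene, was higher, with 239, 245 and 239.6 CPM in the tetramolters, against 125, 129.9 and 64.8 CPM in the trimolters (log2 fold change 1.18, SE 0.21, edgeR adjusted p = 0.000974), while Pi3k60, an adaptor of the kinase below it, fell by 0.73 (SE 0.12).

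Among detoxification families the direction differed. Glutathione transferases were higher in 7 of 20 and lower in 1. GSTe4, of the epsilon class, was among the largest rises of genes with a symbol, with 133, 118 and 109.6 CPM in the tetramolters, against 13.2, 11.3 and 1.83 CPM in the trimolters (log2 fold change 3.78, SE 0.51, edgeR adjusted p = 0.000398), and GSTo2 had 131, 126 and 124 CPM in the tetramolters, against 45.4, 51.5 and 42.5 CPM in the trimolters (1.45). Cytochrome P450 genes were higher in 10 of 31 and lower in 6. Cyp332a1 rose by 1.73 (SE 0.19) and CYP340C1 by 1.60 (SE 0.24), whereas Cyp6ab5 had 9.96, 9.35 and 10.8 CPM in the tetramolters, against 25.9, 52.9 and 50.1 CPM in the trimolters (-2.10). Of 30 UDP-glycosyltransferases, which attach sugars to small molecules, 8 were higher and 9 lower. UGT340C1 had 0.409, 0.143 and 0.625 CPM in the tetramolters, against 3.97, 9.04 and 10.9 CPM in the trimolters (-4.31, SE 0.57), and the lower ones held all 3 tested UGT42 genes and both tested UGT340 genes, subfamilies singled out after their values were seen. The counts of UDP-glycosyltransferases are near the background of 22.5% and 22.7%.

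Defence genes had no common direction either. Of 25 tested immune genes, 7 were higher and 4 lower. BGRP2, which recognises fungal glucans, had 93.7, 105 and 106 CPM in the tetramolters, against 37.3, 40.4 and 28.6 CPM in the trimolters (log2 fold change 1.52, SE 0.18, edgeR adjusted p = 7.55e-05), and PGRP-S5, a peptidoglycan recognition gene, had 45.4, 41 and 41.9 CPM in the tetramolters, against 10.02, 14.1 and 7.3 CPM in the trimolters (2.03). The NF-kappaB type factors were lower, Dorsal at -0.70 (SE 0.10) and Rel at -1.48 (SE 0.30). Of 17 serpins, inhibitors of serine proteases, 5 were higher and 5 lower: serpin-12 had 91.1, 82.4 and 91.2 CPM in the tetramolters, against 34, 39.4 and 24.7 CPM in the trimolters (1.43), and serpin-9 had 74.7, 78.6 and 74.7 CPM in the tetramolters, against 406, 676 and 314 CPM in the trimolters (-2.61). Atg8, which coats autophagosomes, rose to 428, 351 and 360.4 CPM in tetramolters, against 162, 161 and 139.8 CPM in trimolters (1.30), 1 of 3 higher genes among 13 of autophagy and cell death.

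Other large rises of named genes had no list in common. Dsclp had 391, 359 and 356 CPM in the tetramolters, against 51.6, 28.2 and 23.7 CPM in the trimolters (log2 fold change 3.42, SE 0.28, edgeR adjusted p = 2.09e-05), Bm122 had 1653, 1810.1 and 1764 CPM in the tetramolters, against 39.3, 337 and 76.2 CPM in the trimolters (3.53, SE 0.61), and Lsp-t had 7.78, 8.56 and 8.48 CPM in the tetramolters, against 0.74, 1.34 and 1.24 CPM in the trimolters (2.90). Time, also listed as ea4, a gene known in silkworm eggs for an enzyme that times diapause, had 209, 182 and 198 CPM in the tetramolters, against 36.7, 40.6 and 21.8 CPM in the trimolters (2.57). No trimolter overlapped the tetramolters in any of them. Among falls outside the cuticle, VAP had 0.614, 0.571 and 0.556 CPM in the tetramolters, against 36.4, 2.24 and 60.5 CPM in the trimolters (-5.81, SE 1.20), and Sp2, a storage protein gene of the fat body, had 0.205, 0.285 and 0.556 CPM in the tetramolters, against 13.5, 33.1 and 1.37 CPM in the trimolters (-5.48, SE 2.01). The call of Sp2 was lost without any 1 tetramolter or trimolter 2 (edgeR adjusted p of up to 0.0676).

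**Figure D5:**
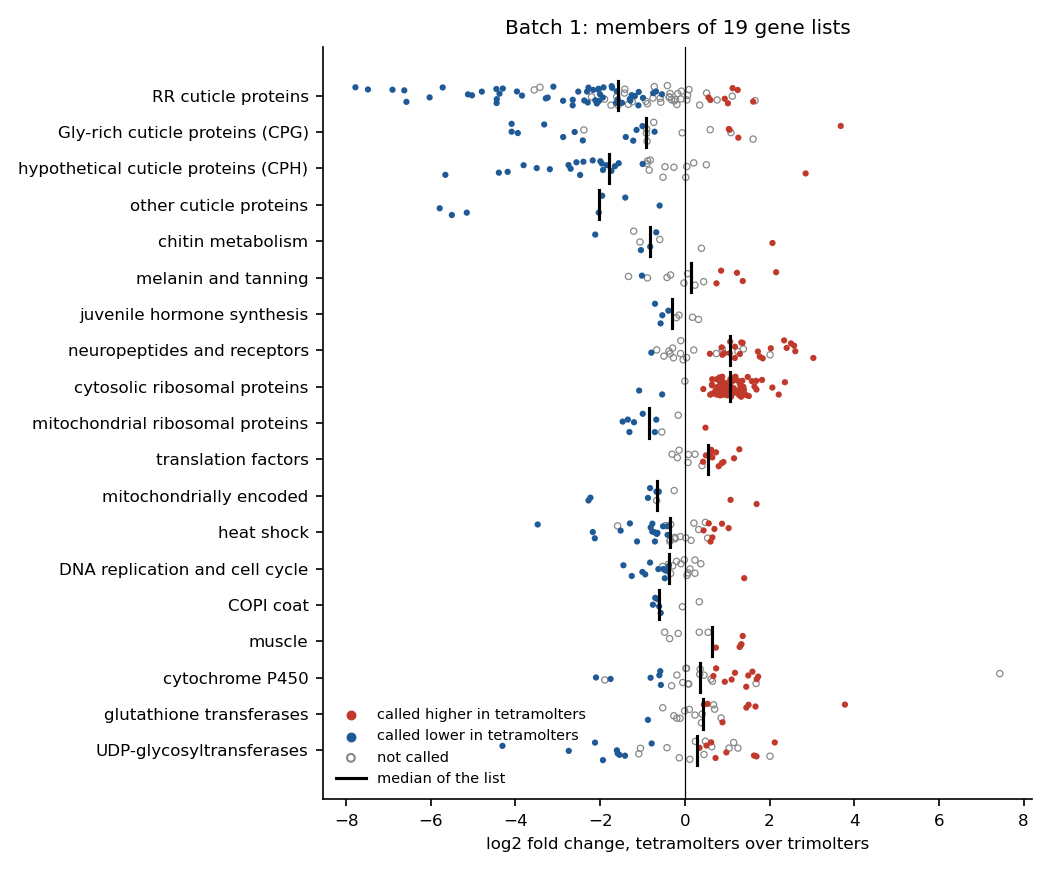
Log2 fold change, tetramolters over trimolters, of every tested member of 19 gene lists, a point per gene. Red points were called higher, blue points lower and open points did not pass, and the black bar is the median, -1.58 for RR cuticle proteins and 1.07 for cytosolic ribosomal proteins; the open P450 point beyond 7 is LOC100127115, with 0 counts in the trimolters.

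Most genes that changed carry no name. Of 9028 tested genes with a LOC number, 1995 were higher and 2025 lower (median 0.00), and of 1175 genes with another symbol, 308 were higher and 342 lower (median -0.06). LOC778498 had 16.6, 9.85 and 9.59 CPM in the tetramolters, against 0.471, 0.299 and 0.196 CPM in the trimolters (log2 fold change 5.19, SE 0.53, edgeR adjusted p = 1.48e-05). LOC101742240 had 17.9, 15.6 and 20.5 CPM in the tetramolters, against 1.34, 0.597 and 0.522 CPM in the trimolters (4.44, SE 0.34), LOC101745963 had 495, 429 and 432 CPM in the tetramolters, against 47.4, 15 and 13 CPM in the trimolters (4.17), and LOC101735343 had 138, 140.1 and 143 CPM in the tetramolters, against 16.4, 5.9 and 3.13 CPM in the trimolters (4.05). Rises of this size left every trimolter at least 8 times below every tetramolter. LOC101739609 and LOC101735573 rose by 4.44 and 4.09. Falls were led by LOC101743595, with 7.16, 4.92 and 4.45 CPM in the tetramolters, against 189, 11.7 and 216 CPM in the trimolters (-4.65, SE 0.78), and LOC101743493, with 1.57, 1.71 and 1.81 CPM in the tetramolters, against 17.1, 38.1 and 30.9 CPM in the trimolters (-4.07). Trimolter 2 came within 5 CPM of the tetramolters in LOC101743595 but not in LOC101743493. LOC101747070, LOC692643, LOC101741248 and LOC101737697 fell by 3.89, 3.78, 3.39 and 3.37.

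A few genes were found in 1 group and nearly absent from the other. With at least 10 counts in every library of a group and at most 3 counts summed over the other group, 15 genes were seen in the tetramolters and 3 in the trimolters. LOC101740293 had 252, 257 and 245 counts in the tetramolters and 0, 0 and 0 counts in the trimolters, at least 254-fold higher in tetramolters at a floor of 3 counts over the group. LOC101740670 had 53, 87 and 91 counts in the tetramolters and 0, 0 and 0 counts in the trimolters, at least 77.9-fold higher. In the other direction, LOC101742416 had 0, 0 and 0 counts in the tetramolters and 57, 44 and 182 counts in the trimolters, at least 93.2-fold lower in tetramolters. Of the 14 tested genes seen in the tetramolters 8 were called, including 3 of the 9 with 0 counts in the trimolters. All 14 had counts in both groups of batch 2, but some had few. LOC101745752 had 3 counts and ID101736755 had 5 counts over the batch 2 trimolters. Whether such low counts come from these genes or from stray or shared reads was not tested.

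Of the 6 genes with the largest gain in mean CPM, 2 belong to muscle: TpnI, troponin I, had 10272, 9228 and 9151 CPM in the tetramolters, against 5611, 2509 and 3302 CPM in the trimolters (log2 fold change 1.33, SE 0.24, edgeR adjusted p = 0.00123), and MLC-2, a myosin light chain, had 13733, 14047 and 13935 CPM in the tetramolters, against 12350.03, 4893 and 7856 CPM in the trimolters (0.73, SE 0.25). MLC-2 and the unnamed LOC692913 lost their calls without any 1 tetramolter or trimolter 3 (edgeR adjusted p of up to 0.0984 and 0.0731). LOC692826 had 6573, 6245 and 6063 CPM in the tetramolters, against 2876, 1257 and 1699.7 CPM in the trimolters (1.69) and LOC101745298 had 9565, 8398 and 8293 CPM in the tetramolters, against 6078, 2361 and 3791 CPM in the trimolters (1.10), both without overlap. Markers of muscle as a list were higher in 5 of 10 and lower in none, with Projectin at 1.37 and Titin2 at 1.34, while A1, an actin gene and the most abundant marker, had 32603, 33543 and 34216 CPM in the tetramolters, against 36929, 19002 and 23361 CPM in the trimolters and did not pass. Without any 1 tetramolter or trimolter 3, 3 of the list were higher. Muscle genes took 5.76%, 5.81% and 5.88% of counts in tetramolters and 6.02%, 2.85% and 3.9% in trimolters, where trimolter 1 lay above all tetramolters.

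Markers of other tissues were present, and their direction differed by tissue. Transcripts of the abdominal Hox genes abd-A and Abd-b were nearly missing, with 1 and 3 counts over the tetramolters and 0 and 9 counts over the trimolters, while Scr, a Hox gene of labium and prothorax, had 7.23, 7.49 and 6.32 CPM in the tetramolters, against 8.4, 7.02 and 9.65 CPM in the trimolters and did not pass (-0.25, SE 0.16). Ubx was the 1 called member of 5 tested Hox genes and was higher, a call lost without tetramolter 2 (edgeR adjusted p = 0.0588). Of 6 tested midgut markers 3 were lower and none higher, Apn3, an aminopeptidase gene, at -1.18 (SE 0.26) with 453, 523 and 527 CPM in the tetramolters, against 631, 1291 and 1476 CPM in the trimolters, and the list took 0.173%, 0.1998% and 0.203% of counts in tetramolters and 0.17%, 0.487% and 0.418% in trimolters. The calls of Suc1 and Apn4 were lost without any 1 library other than trimolter 1 (edgeR adjusted p of up to 0.177), which left 1 lower gene. Both tested tracheal genes were lower, trh at -0.84 (SE 0.19) and Btl at -0.31 (SE 0.11), the call of Btl lost without tetramolter 2 or 3 or trimolter 1 or 3 (edgeR adjusted p of up to 0.113). The 3 haemocyte markers did not pass, and of 4 tested silk gland markers P25, under 2 CPM in every library, was higher (2.58, SE 0.71). The part of tissue makeup in the cuticle, ribosomal, peptide and other results was not tested.

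Transcripts annotated as long noncoding RNA were higher in 82 of 258 and lower in 6 (median 0.56). LOC101736292 had 1685, 1280.03 and 1213 CPM in the tetramolters, against 419, 33.4 and 152 CPM in the trimolters (log2 fold change 2.79, SE 0.62, edgeR adjusted p = 0.00675), and LOC101738313 had 82.2, 77.9 and 82.6 CPM in the tetramolters, against 7.6, 22 and 9.78 CPM in the trimolters (2.63). Together the 1069 annotated rows of this class took 0.501%, 0.442% and 0.432% of counts in tetramolters and 0.267%, 0.21% and 0.219% in trimolters, without overlap. No source used here says if counting used strand, so reads of such genes cannot be told apart from reads of overlapping genes. The count also depended on the test and on a library, with 35 higher in limma-voom and 52 higher without tetramolter 1.

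Within the trimolters the distance from the tetramolters varied. Among genes called with no overlap and a change of at least 1 log2 unit, 663 were lower and 1023 higher in tetramolters with a mean of at least 1 log2 CPM. In the lower set, the trimolter nearest to the tetramolters was trimolter 1 for 50.5%, trimolter 2 for 40.4% and trimolter 3 for 9.05%. In the higher set the shares were 47.5%, 41.9% and 10.6%. Trimolter 3 was thus seldom the nearest. The other two came near in different genes: trimolter 1 had the highest trimolter value in 9 of 10 muscle genes, and trimolter 2 in all 77 ribosomal genes called higher.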

How the data were processed

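RNA with poly(A) tails from joined head and thorax was sequenced as read pairs, per the labels' protocols. The submitters' processing notes name DESeq2 1.38.3, StringTie 2.2.1, HISAT2 2.2.1 and Trimmomatic 0.39. Not given in the sources used here: counting program, genome build, annotation release, strand. The authors deposited a table of raw read counts per gene for all samples, and their FPKM values were used only for relative gene length.

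Of 17583 rows, 511 labelled as unannotated transcripts (0.21% to 0.248% of counts) were left out. The FPKM column of trimolter 2 is empty, so 1 column was not used. The genes with enough counts for their group (filterByExpr) were fitted in edgeR 4.0.16 (R 4.3.3) over all 12 libraries as 4 group means, with TMM factors and robust quasi-likelihood dispersions. All 6 batch 1 libraries entered each value. Calls are edgeR quasi-likelihood tests with Benjamini-Hochberg adjustment over all 10721 genes, at a threshold of 0.05. CPM are counts scaled by TMM library size to a common total, a level not corrected for gene length, and log2 fold changes are tetramolters over trimolters. Intervals of counts cover counting error only.

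Symbols, synonyms, classes and gene order come from RefSeq (ASM3026992v2), which matched 14945 IDs, and no sequence was read. Named genes are those with the largest called changes and no overlap in each direction, on the log2 scale and in CPM. In each list they are called members of smallest p, and hormone genes are named whatever their test. Others were named for contrast or after their values were seen. The gene lists, members and tests were chosen with earlier results of these data known. Alternatives were limma-voom 3.58.1, DESeq2 1.42.0, other scalings, the 6 libraries alone, no filter on low counts, a replicate block, removal of the length trend, and leaving out each library.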

Additional observations from a re-analysis of the deposited data

Results flagged for a closer look

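The change between tetramolters and trimolters was set against the same change in batch 2, in edgeR's quasi-likelihood interaction test with Benjamini-Hochberg adjustment. Of 10721 genes, 5734 had changes that differed between batches, 2864 with a larger and 2870 with a smaller value in batch 2. The difference passed for 24 of the 24 largest named genes and for 15 of the 18 hormone genes called in batch 1. The 24 were taken for the size of their batch 1 change and the 18 for their batch 1 call. The test subtracts that same change, so the choice of genes in part fixed these counts.

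Among genes of ecdysteroids, the batch 2 change minus the batch 1 change was -2.99 log2 units for Cyp306a1, -1.39 for LOC692444 (EPPase), 0.71 for Br-c and 0.74 for E74. It was 7.51 for LOC100862708 (EO), a fitted value that rests on 1 count over the batch 1 tetramolters. Among genes of juvenile hormone it was 0.84 for Aact, 1.34 for Hmg-s, 1.07 for Hmg-r, 0.84 for Fpps3, 1.05 for Jheh2, 0.95 for MET1, 1.15 for Jheh-lp3 and 0.94 for Cjhbp. It was -2.26 for Jheh-lp2 and -1.72 for hJHBP. The genes were taken for their call in batch 1. A difference as large as the batch 1 change and opposite in sign means a batch 2 change near 0. A larger one puts the estimated batch 2 change on the other side of 0. This was so for every gene listed here except Br-c and Jheh2, whose values nearly cancelled. It was so by little for some, such as E74 and MET1. No batch 2 change was tested here on its own. Batch, collection and any difference in stage between the collections cannot be told apart here.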

How the results depend on the processing

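Of 544 called genes among the 851 described, none turned round under the alternatives in which it was tested, and 2869 of all 4849 calls held in every one. The number of calls was 3892 in the 6 libraries alone, 4879 with DESeq2's size factors, 4787 with upper quartile factors, 4652 with no filter, 4695 with the length trend removed, 5107 in DESeq2 and 3424 in limma-voom, and 3733 to 5414 when a library was left out. Cuticle genes called lower numbered 79 to 107 and ribosomal genes called higher 74 to 77 over all alternatives. Among lists whose count moved by more than 1.5 times were neuropeptides and receptors (21 higher, 13 in limma-voom), mitochondrially encoded genes (7 lower, 4 in the 6 libraries alone and in limma-voom, 4 to 8 without a library), cell cycle genes (11 lower, 7 in both of these, 6 to 13 without a library), muscle (5 higher, 2 in the 6 libraries alone, 3 to 7 without a library), midgut (3 lower, 1 in the 6 libraries alone and 1 with a replicate block, 1 to 4 without a library) and lncRNA (82 higher, 35 in limma-voom, 52 to 89 without a library). With the length trend removed, nervous system genes called lower numbered 4 in place of 2 and immune genes called higher 3 in place of 7, and chemosensory genes called lower 7 in place of 4. Carboxylesterases called higher numbered 2 in the 6 libraries alone in place of 4, and those called lower 1 in limma-voom in place of 3. Lipid genes called higher numbered 2 in both in place of 4, autophagy genes 1 in the 6 libraries alone in place of 3, and tracheal genes called lower 1 in place of 2 in both and with the length trend removed. The cause of these moves was not tested. The labels give replicate numbers to both groups. Deviations of same-numbered libraries correlated at 0.114, 0.0426 and 0.00736, against -0.112 to 0.0739 for libraries of unlike number. With 3 libraries a group this cannot decide whether the numbers pair the samples. With a replicate block 4439 genes were called, 2304 higher and 2135 lower. Tetramolters varied less, at a mean SD of 0.168 log2 units, against 0.408 in trimolters, and the fit gives both groups a common spread. Peptide genes rest on few counts, ETH on 147 over the tetramolters and 24 over the trimolters.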

Other observations

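Of 19 tested genes of the chemosensory list, which holds several gene families, 4 were higher and 4 lower. These counts are near the background of 22.5% and 22.7% of all genes tested. Named here are genes of the chemosensory proteins (CSP), small carriers made in many tissues. CSP9 had 49.8, 50.9 and 49 CPM in the tetramolters, against 28.8, 27.3 and 21.6 CPM in the trimolters (0.95, SE 0.15) and CSP11 had 36, 36.7 and 34.6 CPM in the tetramolters, against 62.1, 61.2 and 199 CPM in the trimolters (-1.59, SE 0.39). Among 11 tested genes of lipid metabolism 4 were higher and 2 lower, with the desaturase genes apart: DESAT4 had 310.3, 294 and 305 CPM in the tetramolters, against 146, 156 and 140.1 CPM in the trimolters (1.04, SE 0.10), and Desat3 had 14.6, 13.3 and 14.9 CPM in the tetramolters, against 30.7, 35 and 70.4 CPM in the trimolters (-1.67, SE 0.34). ACBP, which binds acyl-CoA, had 91.3, 82 and 78.7 CPM in the tetramolters, against 137, 186 and 176 CPM in the trimolters (-0.98). Of 16 tested carboxylesterases 4 were higher and 3 lower, be2 at 1.41 (SE 0.20) and cce-6 at 1.30 (SE 0.21) among the higher.

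Of 11 tested transcription factors 2 were higher and 2 lower. LOC101738651, listed as rotund, which patterns appendages in flies, had 10.5, 12.2 and 12 CPM in the tetramolters, against 21.3, 17 and 25.4 CPM in the trimolters (-0.88, SE 0.17). Ubx, a Hox gene of the posterior thorax, had 3.002, 4.21 and 3.47 CPM in the tetramolters, against 1.21, 2.46 and 0.522 CPM in the trimolters (1.36, SE 0.40), and its call was lost without tetramolter 2 (edgeR adjusted p = 0.0588). The 4 tested clock genes did not pass, Per with 55.3, 47.5 and 56.4 CPM in the tetramolters, against 50.2, 41.6 and 30.8 CPM in the trimolters (0.38, SE 0.16) and cry2 with 64.9, 64.3 and 63.6 CPM in the tetramolters, against 61.3, 50.3 and 59.1 CPM in the trimolters (0.18, SE 0.10). Calls of the genes named here other than Ubx held without any 1 library.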
